A study of Helianthus annuus with 8 samples.

Results

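The 100 transcripts described here lay above their controls both in sunflower leaves under water deficit and in 1 leaf sample after the flower head had been cut off. They were chosen from the log2 values deposited for 8 arrays. Probes spotted once and marked by the scanner software as well above background on all 8 arrays entered the choice, which left 26589 of 40243 probe names. The water deficit margin of a probe was the lower of its 2 water deficit values minus the higher of the 2 control values of the same age. The head excision margin was the single head excision value minus the highest of the 3 control values of that age. The first margin was above 0 for 28.2% of the probes that entered and the second for 27.3%. In the other direction, both water deficit values lay below both controls for 33.7%, and the head excision value below all 3 for 28.3%. A single value lies outside 3 others more easily than 2 values outside 2. The shares are thus not comparable in size, and no effect is read from them. Both margins were above 0 for 2495 probes, or 9.38%, and the 100 with the largest smaller margin were taken. Since these margins chose the transcripts, their higher values in the treated leaves are a description and no finding, and the calls of limma for those comparisons support nothing about them.

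Each array held Cy3-labelled RNA from leaf of the field-grown sunflower hybrid VDH 481, measured with an Agilent oligonucleotide array. At 45 days there were 2 control samples and 2 samples under a mild water deficit, made by covering the soil with a plastic mesh against rain and by controlled irrigation. At 50 days there were 3 control samples and 1 head excision sample, from plants whose flower was cut shortly before flowering to remove the reproductive sink. All plants shared the hybrid and the field, and the controls were untreated and irrigated. The methods describe the younger samples as leaf 15 at another age than the labels give, with an experimental unit of several plants per plot. They do not describe the samples labelled 50 days, so leaf position and the number of plants are not given there in the sources used here. A leaf of a group, in the text below, means the leaf sample on 1 array, which may hold several plants. The 45-day arrays lay on one slide and the 50-day arrays on another, so age and slide cannot be told apart. The head excision group is 1 array, and its spread was assumed to be that of the other groups. P-values measure only the spread between these samples. In bulk leaf RNA, fewer cells of a type and less RNA per cell cannot be told apart. The probes carry numbers and no gene names, so that markers of leaf or of other cell types could not be checked.

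A leaf ages under the control of both its own development and the demand of other organs. In senescence, chloroplasts are taken apart and nitrogen and carbon are moved to growing parts, in sunflower mainly to the head and its seeds. Water shortage speeds leaf senescence and induces genes of abscisic acid response and of protection against drying. Removal of the head takes away the main sink, which lets sugars and nitrogen compounds collect in leaves. Whether any of the 100 transcripts belongs to such a pathway cannot be read from the files used here. By pairing with a supplementary list, 80 of the 100 received the name of a sunflower unigene, a transcript assembled from sequenced cDNA fragments. Of these 80, 39 are contigs (HeAn_C), 39 are singletons (HeAn_S) and 2 are of other classes. Over all 1990 unigenes paired in that way, 38.0% were contigs. The paper orders that list by the change under water deficit, and only a part of it was used. The 1990 therefore need not stand for all unigenes, and nothing is read from these shares. The other 20 are called by their probe number (CUST).

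The younger controls were the dimmest arrays. The median processed signal of all probes was 108 and 89.1 units there and 144 and 145 units under water deficit. It was 137, 122 and 129 units on the controls of 50 days and 131 units after head excision. Between 69.8% and 73.4% of spots were well above background. No spot of the 100 transcripts was saturated or marked as an outlier. The software's modelled error of their spots ranged from 10.0% to 22.1% of the signal. The median signal of the 100 transcripts was 170 and 187 units on the 2 controls of 45 days and 1297 and 2231 units under water deficit. It was 120, 84.5 and 78.3 units on the 3 controls of 50 days, and 382 units after head excision. These signals are not normalized between arrays. All further values are log2 signals after background correction and quantile normalization unless given in units.

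HeAn_C_896 stood first by the rule. Its processed signal was 51.5 and 72.9 units in the controls of 45 days and 1259 and 1435 units under water deficit. In the controls of 50 days it was 82.2, 64.9 and 78.3 units, and after head excision 1255 units. The 3 treated leaves thus lay close together and the 5 controls did too, with no overlap. After normalization the levels were 5.86 and 6.64 in the younger controls, 10.12 and 10.29 under water deficit, 6.23, 6.05 and 6.23 in the older controls and 10.18 after head excision. The rise, here the treated mean minus the control mean of the same age, was 3.96 ± 0.27 (SE) log2 units, or 15.5-fold, under water deficit and 4.02 ± 0.31, or 16.2-fold, after head excision. With an offset of 50 in the background correction these became 9.73-fold and 9.99-fold. With median spot signals and local background as well, they were 6.04-fold and 5.91-fold. The difference between the rises was -0.06 ± 0.41 log2 units (limma, adjusted p = 0.986).

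HeAn_C_1132, the second by the rule, differed between the treatments more than any other of the 100. Its signal was 31.3 and 29.7 units in the controls of 45 days against 3657 and 9720 units under water deficit. In the controls of 50 days it was 39.0, 15.0 and 30.4 units, and head excision gave 250 units. Both water deficit leaves were far above the head excision leaf, which in turn was above all 5 controls. The rise was 7.16 ± 0.60 log2 units under water deficit and 3.24 ± 0.69 after head excision. The rise under water deficit corresponds to 143-fold, and to 62.4-fold with an offset of 50. The rise after head excision corresponds to 9.44-fold, and to 3.78-fold with that offset. With median spot signals and local background as well, the 2 rises were 27.6-fold and 2.39-fold. Its control signals were near the low end of the scale. The difference between the rises was 3.93 ± 0.91 log2 units, with an unadjusted p of 0.0065 and an adjusted p of 0.190 in limma.

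HeAn_S_25614 and HeAn_S_25661 were the 2 transcripts with an entry in the list of Gene Ontology terms, of which only a part covering 473 unigenes was used. HeAn_S_25614, the third by the rule, carries terms for DNA-templated transcription and for a membrane-bounded organelle. Its levels were 5.04 and 6.60 in the controls of 45 days, 10.28 and 11.26 under water deficit, 4.79, 4.88 and 4.13 in the controls of 50 days and 7.50 after head excision. The water deficit leaves were above the head excision leaf, which was above every control. The rises were 4.95 ± 0.62 and 2.90 ± 0.72 log2 units. With an offset of 50 in the background correction they became 4.04 and 1.64 log2 units.

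HeAn_S_25661, the fifth by the rule, carries terms for a carbon-oxygen lyase that acts on phosphates, for binding of magnesium, for phospholipid metabolism, for response to stress and for the plastid. Lyases of this class include many terpene synthases, which form volatile and defence compounds from diphosphate precursors in plastids and cytosol. Its levels were 7.84 and 9.37 in the younger controls, 11.74 and 12.10 under water deficit, 6.28, 6.997 and 6.73 in the older controls and 9.65 after head excision. The head excision leaf was above the older controls by more than their range, but above the higher of the younger controls by less than the gap between those. The rise was 3.32 ± 0.54 log2 units (9.96-fold) under water deficit and 2.98 ± 0.62 (7.88-fold) after head excision.

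The other 6 of the first 10 by the rule were HeAn_C_2751, HeAn_S_29201, HeAn_C_6783, CUST_318, HeAn_C_6047 and CUST_10585, for which no function is given. HeAn_S_29201 had levels of 6.16 and 6.76 in the younger controls and 11.37 and 12.32 under water deficit, against 4.82, 6.08 and 5.13 in the older controls and 8.48 after head excision. Its rise of 5.39 ± 0.54 log2 units under water deficit exceeded that of 3.14 ± 0.62 after head excision. HeAn_C_6783 had rises of similar size, 3.05 ± 0.43 and 3.20 ± 0.50 log2 units, from levels of 7.73 and 7.14 and of 6.61, 5.98 and 5.80 in the controls. HeAn_C_2751 had rises of 4.08 and 2.99 log2 units and HeAn_C_6047 of 3.82 and 2.77. CUST_318 had control levels of 7.60 and 10.67 at 45 days, so that its 2 younger controls lay 3.07 log2 units apart, and water deficit levels of 12.83 and 14.10. CUST_10585 varied widely under water deficit, at 8.31 and 10.97. For both, the treated leaves lay above all controls of their age, as the rule demands.

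**Figure D1:**
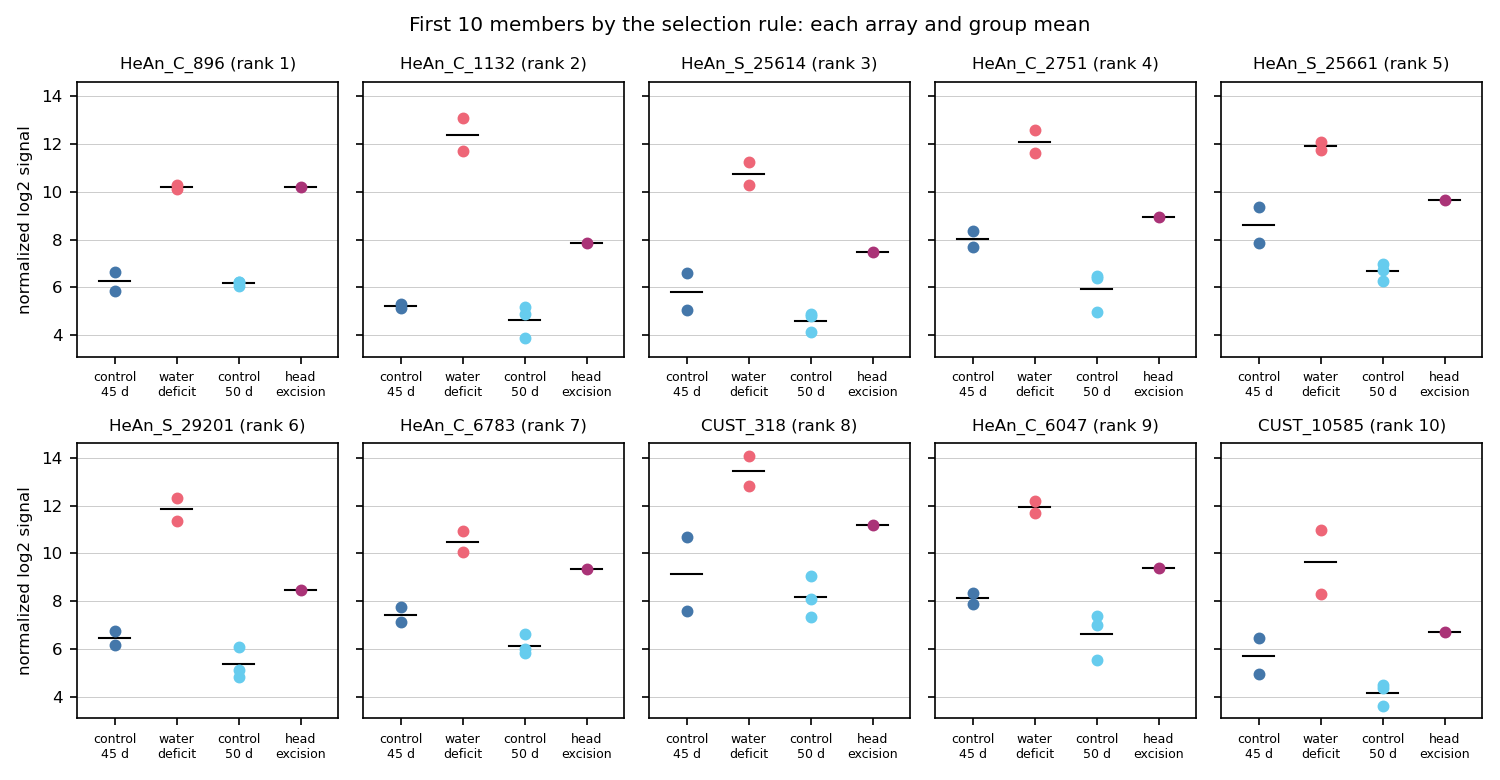
Normalized log2 signal (vertical axis, common to all panels) of the first 10 transcripts by the rule in the 4 groups (horizontal axis). Each point is 1 array and each bar the group mean; the treated points lie above all control points of the same age in every panel, as the rule demands, and the head excision point lies within the water deficit range only for HeAn_C_896.

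At the other end of the selection, HeAn_S_36929, CUST_22343 and HeAn_S_29635 entered with smaller margins of 0.92, 0.91 and 0.91 in the deposited log2 values. The next 3 probes, HeAn_C_10819, HeAn_S_38091 and HeAn_C_11619, had 0.90, 0.90 and 0.89 and were left out. The border thus separates transcripts that hardly differ. CUST_22343 had levels of 6.14, 4.24 and 5.38 in the controls of 50 days and 7.10 after head excision, so that the gap to the highest control was smaller than the range of the controls. This was so for 15 of the 100, while for 85 the gap exceeded that range. Under water deficit the gap exceeded the range of both groups for 96 and did not for 4. The rule took the largest margins, so wide gaps are largely built in. The same counts were not made over the other probes, and nothing is read from them. The head excision margin was the smaller of the 2 for 70 transcripts and the water deficit margin for 30.

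Over all 100 transcripts the rise under water deficit ranged from 1.29 to 7.16 log2 units with a median of 2.44 (5.43-fold), against a median of -0.05 over the 26589 probes. The rise after head excision ranged from 1.08 to 4.02 with a median of 1.68 (3.21-fold), against 0.01. With median spot signals, local background and an offset of 50, the medians were 3.14-fold and 1.99-fold. In limma, 41 of the 100 had an adjusted p below 0.05 for the higher level under water deficit, where 1.34% of all 40243 probes and 1.32% of the 26589 were called higher. For head excision only HeAn_C_896 was called (adjusted p = 0.0230), where 0.236% of all probes and 0.0113% of the 26589 were called higher. At an unadjusted p below 0.05 all 100 passed as higher for water deficit and 89 for head excision, against 11.8% and 4.46% of all probes. The rule used both comparisons, so nothing is read from these counts. Without 1 array the 41 became 8 (control of 45 days, replicate 1), 31 (replicate 2), 14 and 1 (water deficit, replicates 1 and 2), and 9, 0 and 0 (controls of 50 days, replicates 1, 2 and 3). The call of HeAn_C_896 after head excision was lost without any 1 of the 2 water deficit arrays or of the 3 controls of 50 days.

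**Figure D2:**
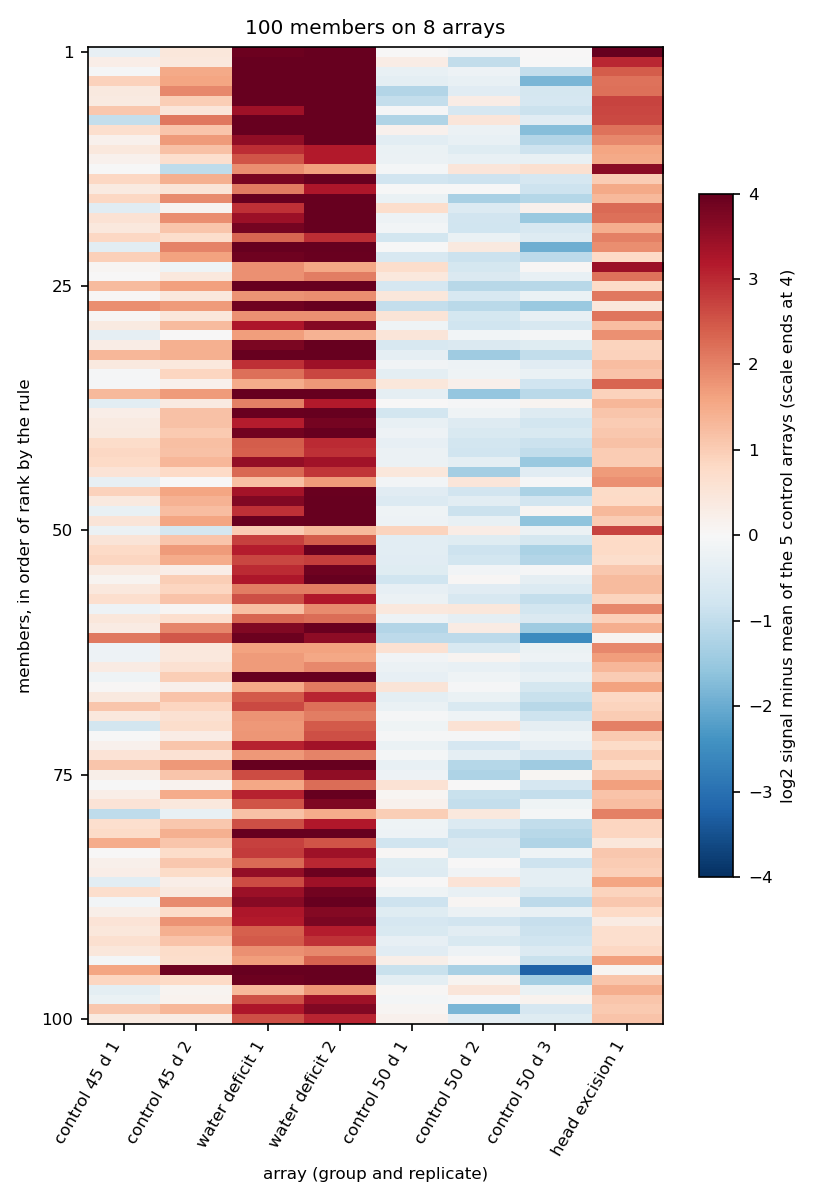
Log2 signal minus the mean of the 5 control arrays (colour, with the scale ending at 4 in both directions) for the 100 transcripts (rows, in order of the rule) on the 8 arrays (columns). The 2 water deficit columns are the darkest, the head excision column is paler in most rows, and most rows are paler red in the younger controls and blue in the older ones.

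The rise under water deficit was the larger for 74 of the 100 transcripts. This share was 47.7% over the 26589 probes but 74.6% over the 2495 that passed both margins, so it is not particular to the 100. Differences from control also spread more widely under water deficit over the 26589 probes, with quartiles of -0.40 and 0.32 log2 units against -0.23 and 0.25 for head excision. For the 100 the median difference between the rises was 0.65 log2 units (1.57-fold). Both water deficit leaves lay above the head excision leaf for 82 transcripts, against 40.7% of the 26589 probes and 70.1% of the 2495. Both lay below it for 12, against 46.3% and 19.6%. Since the rule chose on both rises, these shares are a description. This difference is not a comparison of the rule, but it is built from the same arrays. In limma 0 of the 100 passed an adjusted p of 0.05 in either direction, where 0.104% of all probes and 0.0301% of the 26589 were called with the larger rise under water deficit, and 0.139% and 0.0263% with the larger one after head excision. Before correction 20 of the 100 had a p below 0.05 for a larger rise under water deficit and 0 for a larger one after head excision, where 7.4% and 7.29% of all probes had. No transcript is therefore shown to differ between the treatments after correction.

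HeAn_C_1132, HeAn_S_32788 and HeAn_S_29201 had the largest excess under water deficit. HeAn_S_32788 had levels of 4.17 and 5.33 in the younger controls, 8.40 and 8.95 under water deficit, 4.02, 4.18 and 4.06 in the older controls and 5.37 after head excision. Its head excision level was thus only just above the higher of the younger controls. The rises were 3.92 ± 0.41 and 1.28 ± 0.47 log2 units, with a difference of 2.64 ± 0.62 (limma, adjusted p = 0.193). Its control signals were near the low end of the scale. With an offset of 50, the rises of 15.2-fold and 2.43-fold became 5.92-fold and 1.37-fold. They were lower still with median signals and local background as well. HeAn_S_36929, at the border of the selection, had a difference of 1.95 ± 0.47, and that of HeAn_S_17959 was 1.27 ± 0.31.

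CUST_25645, HeAn_C_9045 and CUST_32744 had the largest excess after head excision. CUST_25645 had levels of 6.30 and 6.03 in the younger controls and 8.04 and 7.74 under water deficit, against 6.92, 5.52 and 6.26 in the older controls and 9.64 after head excision. The head excision leaf was above both water deficit leaves, and the controls of both ages overlapped. The rises were 1.73 ± 0.46 and 3.41 ± 0.53 log2 units, and their difference was -1.68 ± 0.70 (limma, adjusted p = 0.356). HeAn_C_9045 had levels of 5.14 and 4.15 in the younger controls, 7.03 and 6.80 under water deficit, 5.09, 5.66 and 5.80 in the older controls and 8.77 after head excision. With an offset of 50, its rise went from 4.82-fold to 2.26-fold under water deficit and from 9.54-fold to 5.09-fold after head excision. With median signals and local background as well, the 2 were 1.59-fold and 3.03-fold. The difference between its rises was -0.99 ± 0.60 log2 units. For CUST_32744, at 7.78 and 8.05 under water deficit and 8.63 after head excision, it was -0.83 ± 0.65. All 3 had head excision levels above both water deficit leaves, and none passed the test.

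Across the 100 transcripts the 2 rises had a Pearson r of 0.42 and a Spearman rho of 0.19, and r was 0.32 without the first 2 by the rule. Across the 26589 probes r was 0.31 and rho 0.19. These are descriptions across genes, which are not independent replicates, and the choice of the 100 set a lower limit on both rises.

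**Figure D3:**
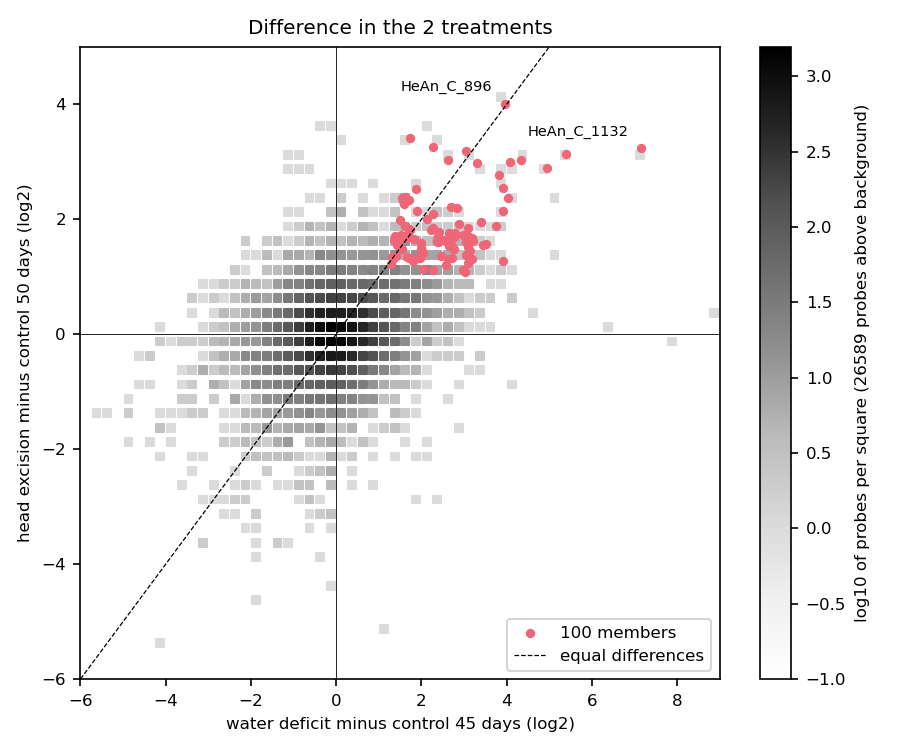
Log2 difference of water deficit minus control at 45 days (horizontal axis) and of head excision minus control at 50 days (vertical axis). Points are the 100 transcripts, grey squares the number of probes among the 26589 (log10 scale) and the dashed line marks equal differences; 74 points lie to the right of that line.

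For most of the 100 transcripts the control level was lower in the older leaves. The mean of the 3 controls of 50 days was below that of the 2 controls of 45 days for 87 of the 100 transcripts, against 50.5% of the 26589 probes and 70.2% of the 2495 that passed both margins. All 3 older controls lay below both younger ones for 69 transcripts, against 20.9% of the 26589 and 42.0% of the 2495. All 3 lay above both for 2, against 20.4% and 11.7%. The difference ranged from -4.54 to 1.09 log2 units with a median of -1.13, while the median over the 26589 probes was 0.00. With median spot signals and an offset of 50 the median over the 100 was -0.53. This comparison was not part of the rule, but the rule used the same control arrays, whose highest value at each age had to lie under the treated ones, and no test here separates the shares from that choice. Age and slide cannot be told apart in it.

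In limma 6 of the 100 were called lower at 50 days (HeAn_C_5544, HeAn_C_769, HeAn_S_26406, HeAn_S_27713, CUST_1048 and HeAn_S_30485), where 0.39% of all probes and 0.365% of the 26589 were called lower. In the same test 0 were called higher, against 0.616% and 0.515% of probes. At an unadjusted p below 0.05, 58 were lower and 1 was higher, against 10.2% and 9.88% of all probes. Without 1 array the 6 became between 0 and 5: 5 without replicate 1 of the younger controls, 0 without replicate 2 of the older controls, and 1 without any of the other 5 arrays left out in turn.

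HeAn_S_27713 had the largest of these changes after CUST_1048. Its levels were 10.15 and 9.99 in the controls of 45 days, 12.19 and 13.01 under water deficit, 7.34, 7.22 and 6.80 in the controls of 50 days and 8.77 after head excision. The 4 ranges did not overlap, and the head excision leaf lay between the older and the younger controls. The older controls were lower by 2.95 ± 0.29 log2 units, or 7.71-fold (limma, adjusted p = 0.0325). HeAn_C_5544, at 5.52 and 6.10 against 3.91, 3.84 and 4.00, was lower by 1.89 ± 0.20 log2 units (adjusted p = 0.0347 in limma). HeAn_C_769 was lower by 2.11 ± 0.23, HeAn_S_26406 by 2.41 ± 0.27 and HeAn_S_30485 by 2.15 ± 0.23 log2 units.

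CUST_1048 and CUST_9694 had the largest excess in the younger controls. CUST_1048 had levels of 9.73 and 10.11 in the younger controls and 11.56 and 11.21 under water deficit, against 6.59, 6.58 and 5.13 in the older controls and 7.75 after head excision. The older controls were lower by 3.82 ± 0.50 log2 units, or 14.1-fold (limma, adjusted p = 0.0483). CUST_9694 was at 10.29 and 12.60 in the younger controls, 15.32 and 15.06 under water deficit, 7.83, 7.42 and 5.49 in the older controls and 8.80 after head excision. Its water deficit levels were the highest of the 100 on both of those arrays, and its older controls were 23.2-fold lower than the younger ones, a difference of -4.54 ± 0.96 log2 units that did not pass (adjusted p = 0.0975).

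In the opposite direction, HeAn_S_18860, HeAn_C_9045 and CUST_651 had the largest excess in the older controls, of 1.09 ± 0.38, 0.87 ± 0.36 and 0.79 ± 0.36 log2 units, and none of them passed the test. HeAn_S_18860 had levels of 5.72 and 6.46 at 45 days and 7.72, 7.17 and 6.66 at 50 days. All older controls were above the younger ones there. CUST_651 had levels of 4.87 and 4.42 against 6.005, 5.40 and 4.88, where the lowest older control was about level with the higher younger one.

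**Figure D4:**
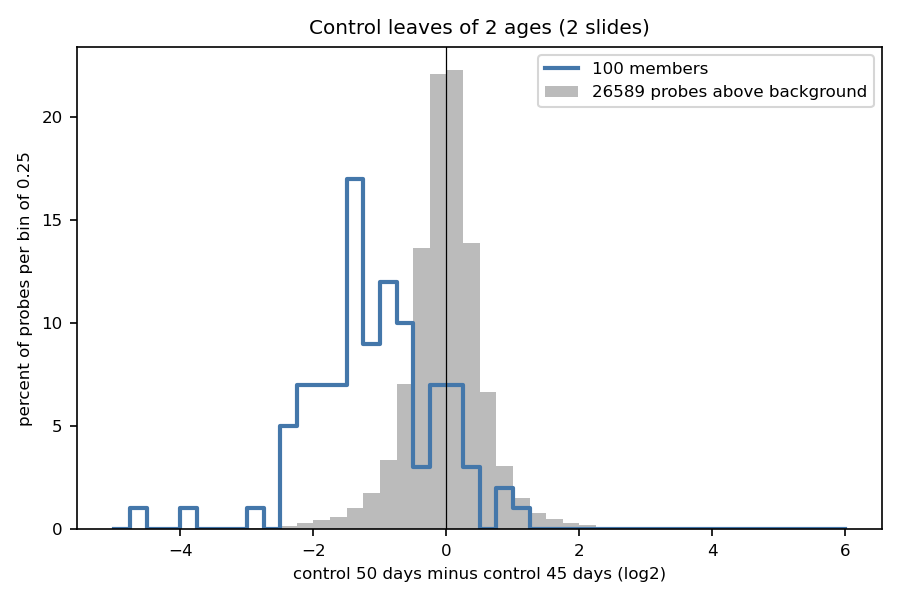
Control leaves of 50 days minus those of 45 days (log2, horizontal axis) for the 100 transcripts (line) and the 26589 probes (grey bars), as percent of probes per bin of 0.25 (vertical axis). The grey bars centre on 0, and 87 of the 100 transcripts lie below 0, with a median of -1.13.

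The head excision leaf can also be set against the younger controls, across slides. It lay above both of them for 61 of the 100 transcripts, between them for 26 and below both for 13, while 36.4% of the 26589 probes were above and 38.7% below both. Of the 2495 that passed both margins, 53.0% were above and 24.6% below. The median of head excision minus the mean younger control was 0.65 log2 units, with a range from -2.65 to 4.13. The 13 below both were HeAn_C_769, HeAn_S_26406, HeAn_S_27713, HeAn_C_8235, HeAn_C_8224, HeAn_S_23086, HeAn_C_7729, CUST_1048, HeAn_C_3423, HeAn_S_30485, HeAn_C_1305, CUST_9694 and CUST_22343. For these, the head excision level lay over all controls of 50 days and under both untreated leaves of 45 days. HeAn_C_3423, for example, was at 11.33 and 11.95 in the younger controls, 14.20 and 14.62 under water deficit, 9.92, 9.09 and 8.81 in the older controls and 10.97 after head excision.

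The 100 transcripts were of low to middle level in controls. Their mean level over the 5 controls had a median of 7.03 and ranged from 3.87 to 11.95, against a median of 8.90 over the 26589 probes. The rule ranked probes by log2 margin over these controls, so a low control level may be built in, which was not tested. The level of the 2495 probes that passed both margins was not computed. Different probes bind with different strength, so these levels do not rank the transcripts by abundance. HeAn_S_17959, HeAn_S_30140 and HeAn_C_295 had the lowest mean control signals. HeAn_S_17959 was at 4.25 and 4.28 in the younger controls, 6.79 and 7.26 under water deficit, 3.73, 3.66 and 3.40 in the older controls and 5.09 after head excision. The SD between replicates was 0.02 (n = 2), 0.33 (n = 2) and 0.17 (n = 3) log2 units in the 3 groups that have them. HeAn_C_295 had levels of 4.39 and 4.70, 5.78 and 5.88, 3.50, 3.74 and 3.42, and 4.78 in the same order. It had the smallest rise under water deficit of the 100, at 1.29 ± 0.17 log2 units. Rises at such low levels depended on the background correction. With an offset of 50, those of HeAn_S_17959 went from 6.77-fold to 2.63-fold under water deficit and from 2.80-fold to 1.36-fold after head excision. Those of HeAn_C_295 went from 2.44-fold to 1.46-fold and from 2.34-fold to 1.26-fold. With median signals and local background as well, the rises of both transcripts were lower still.

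HeAn_C_6255, CUST_5499 and HeAn_C_3423 had the highest mean control signals. HeAn_C_6255 was at 12.37 and 12.57 in the younger controls and 13.76 and 14.01 under water deficit. In the older controls it was at 11.89, 11.79 and 11.13, and after head excision at 12.96. Its rises were 2.67-fold and 2.56-fold. CUST_5499 was at 11.13 and 11.42, 12.55 and 13.24, 11.74, 11.78 and 10.61, and 13.27, with rises of 3.07-fold and 3.71-fold. Its head excision level was the highest of the 100 on that array, and the controls of both ages overlapped.

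Over the 8 arrays the 100 transcripts varied largely together, as a choice by the same arrays entails. The first axis of their centred log2 values held 90.9% of the variation and the second 5.16%, and the Pearson r between 2 of them had a median of 0.92 with a range from 0.07 to 0.9995. In 6 pairs, with 9 transcripts in all, the log2 difference between the members had an SD below 0.1 over the 8 arrays. HeAn_C_10092, CUST_26051 and HeAn_S_35103 formed 3 of these pairs, with SDs of 0.04, 0.07 and 0.09. CUST_26051 was at 10.17 and 10.56 in the younger controls, 11.95 and 11.95 under water deficit, 10.62, 9.43 and 9.79 in the older controls and 12.27 after head excision. All 3 had the larger rise after head excision, of 2.28, 2.32 and 2.34 log2 units against 1.60, 1.58 and 1.70 under water deficit, in the order named. The other pairs were HeAn_S_30610 with HeAn_C_10239 (SD 0.05), CUST_34833 with CUST_41196 (SD 0.07) and HeAn_C_3601 with HeAn_C_7956 (SD 0.09). Without probe sequences it was not tested whether such pairs measure the same gene.

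Replicates of a group tended to differ in one direction across these transcripts. Replicate 2 was above replicate 1 for 87 of the 100 in the younger controls, against 49.3% of the 26589 probes and 74.4% of the 2495, with a median difference of 0.53 log2 units. Under water deficit replicate 2 was also above replicate 1 for 87, against 49.1% and 78.3%, with a median of 0.50. Both held for 78, against 27.4% and 59.6%. Among the older controls replicate 1 was the highest for 62, against 36.5% and 44.1%, and replicate 3 for 8, against 32.3%. Replicate 3 was the lowest for 59, against 30.3% of the 26589 and 60.8% of the 2495. The part of such differences in the results above was not tested. The largest gap between younger controls was that of CUST_318, and the largest between water deficit leaves, of 2.66 log2 units, was that of CUST_10585.

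**Figure D5:**
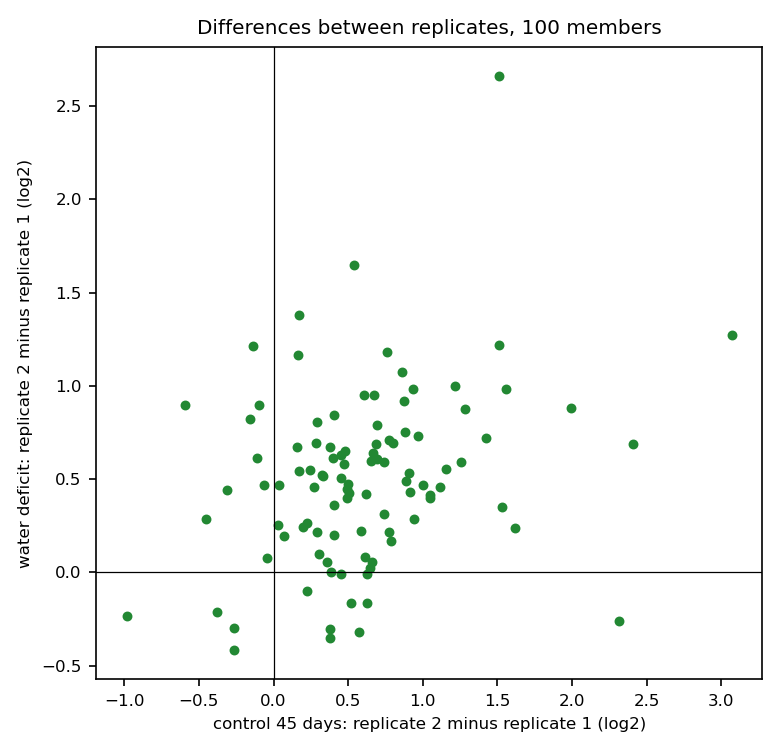
Replicate 2 minus replicate 1 (log2) in the controls of 45 days (horizontal axis) and under water deficit (vertical axis) for the 100 transcripts, 1 point each. Of the points, 78 lie in the upper right corner of the plot, where replicate 2 was the higher in both groups.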

How the data were processed

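RNA of 8 leaf samples was hybridized to 1-colour Agilent arrays. The authors deposited scanner files with the intensity of each spot (processed signal, median signal and median local background, linear scale, not normalized between arrays) and flag columns. Agilent Feature Extraction is given as version 10.7.1.1 by the file headers and as 9.1 by the submitters' processing notes. A deposited table gives log2 values per probe, with the normalization not stated. Each of its columns was compared with the log2 values normalized here from the scanner files. The r was at least 0.9998 with its own array and up to 0.991 with other arrays, so the scale and direction are log2 signal. The column medians were 7.04 to 7.05, and the centring remains unknown. These deposited log2 values chose the 100 transcripts. All other values were computed from processed signals after the methods: normexp (offset 1), log2, quantile normalization over all spots, spots of a probe averaged, control spots left out. In limma 3.58.1 (R 4.3.3), lmFit and eBayes were run with 4 group means over 8 arrays and 40243 probes, with Benjamini-Hochberg adjustment, threshold 0.05. The fit was also run on simulated data with independent noise for each probe and array. Those data lack deviations that samples share, so nothing is read from them about the real arrays.

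The members and lists were chosen with earlier results of these data known. Transcripts to be named were those ranked 1 to 10 and 98 to 100 with the next 3 outside; the 3 at each end of control level, difference between the rises and control difference between ages; and any with a Gene Ontology term or tested by qPCR (0 of 10 qPCR genes were among the 100). Those called between ages, those below both younger controls and the similar pairs were added after their values were seen. Unigene names came from a partial list of 1998 unigenes with the authors' fold and statistic, used only to pair names with probes: a fold within 0.005% and a statistic within 2% matched exactly 1 probe for 1990. No such value is printed. Lists by function could not be applied, since 2 of the 100 had a term. Alternatives were the deposited values, other background corrections, scaling, a filter on dim probes, trended eBayes, fewer arrays and the replicate number as a block. Samples with the same number in the younger groups deviated together with an r of 0.20 over 40243 probes. With 2 samples per group the deviations mirror each other. The opposite pairing therefore gives -0.20 by construction, and no pairing is read from these values. The methods lay the field experiment out in randomized complete blocks, which would pair control and water deficit plots. They give 3 biological replicates per treatment, where 2 each are labelled 45 days here, and do not say whether samples with the same number shared a block. For its spike-in controls the paper names samples CT1, CT3, WD1 and WD2. Equal numbers here may therefore stand for different plots, but the paper does not tie those names to these arrays. With 2 pairs of equal number, and no label that ties them, the numbers were not taken as a pairing in the main fit. Whether field blocks underlie the shared deviations was not tested. The number of arrays limits the precision.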

Additional observations from a re-analysis of the deposited data

How the results depend on the processing

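Counts of calls depended strongly on the fit. All 896 values of the named transcripts under the alternatives kept their sign, which the choice of transcripts fixed for the rises wherever an array was left out. Both margins stayed above 0 for all 100 with each of the other background corrections and with 75th percentile scaling, and leaving out an array can only widen a margin. Rises of named transcripts moved by more than the replicate SD in 95 cases, 43 of them with median signals and an offset of 50 and 31 with processed signals and that offset. Named differences between ages lost their call in 14 cases. Probes called for water deficit were 734 in the main analysis, 1861 with median signals and an offset of 50, 1148 with processed signals and an offset of 50, and 1709 among probes well above background on all arrays. For head excision they were 109, then 19 and 25 with these offsets, 42 with scaling to the 75th percentile, and 0 among probes well above background. Between ages 405 became 793 with that filter. For the difference between the rises 98 became 14 with median signals, 7 with 75th percentile scaling, 0 with the filter and 186 with trended eBayes. The share of calls that were higher was 73.6% for water deficit and 63.6% with the filter, 87.2% for head excision and 47.4% with median signals or 73.8% with 75th percentile scaling, and 61.2% between ages against 48.2% with the filter. For the difference it was 42.9%, and 57.1% with median signals, 54.2% with processed signals and an offset of 50, and 0 with 75th percentile scaling. Without replicate 1 or 2 of the younger controls this share fell to 38.6% or 52.2% for water deficit, to 41.0% or 29.1% between ages and to 13.5% or 27.2% for the difference. For head excision it fell to 54.8% without replicate 1 of the older controls.

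Of the 100, the 41 called for water deficit became 76 with median signals and 85 with the filter. The 1 called for head excision became 2 with the deposited values, with median signals or with trended eBayes, and 0 with the filter. The 6 called lower at 50 days became 2 with processed signals and an offset of 50 and 25 with the filter.

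With only the 4 arrays of one age, limma called 0 probes for water deficit (8832 at an unadjusted p below 0.05, the 100 among them) and 0 for head excision (3507, with 81 of the 100), and so 0 of the 100 in each. With the replicate block, limma called 0 probes in all 4 comparisons and 0 of the 100 for water deficit, head excision and age. At an unadjusted p below 0.05 these fits with the replicate block had 9739 probes for water deficit, 3886 for head excision, 7291 between ages and 5503 for the difference, with 98, 81, 55 (lower) and 17 (larger under water deficit) of the 100. Both kinds of fit leave 2 residual degrees of freedom in place of 4. With the filter, 2301 probes had an unadjusted p below 0.05 for head excision (96 of the 100) and 4223 for the difference.

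Without 1 array, the probes called ranged from 5 to 703 for water deficit, 27 to 104 for head excision, 68 to 612 between ages and 5 to 103 for the difference, and of the 100 from 0 to 31, 0 to 1 and 0 to 5 for the first 3. The lowest of these counts of probes came without replicate 3 of the older controls. The same rule on values normalized here chose 98 of the 100, and between 68 and 96 without 1 array, 68 with median signals, 76 with processed signals and an offset of 50, and 94 with 75th percentile scaling. The number lower at 50 days stayed between 83 and 93 and that with the larger rise under water deficit between 68 and 86. The lone head excision array could not be left out. The cause of these shifts was not tested.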

Other observations

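The 2 treatments share no control array, and the deposited values allow every pair of directions to be counted over the 26589 probes by the same rule of no overlap. Under water deficit 7490 probes were higher and 8958 lower than both controls, and after head excision 7247 were higher and 7522 lower than all 3. Higher in both were 2495 probes, which is 33.3% of those higher under water deficit and 34.4% of those higher after head excision, where 27.3% and 28.2% of all 26589 were higher after head excision and under water deficit. Lower in both were 2852, or 31.8% of those lower under water deficit and 37.9% of those lower after head excision, against 28.3% and 33.7% of all. In opposite directions, 1808 probes were higher under water deficit and lower after head excision, and 2140 were lower under water deficit and higher after head excision. Of the probes higher after head excision 29.5% were lower under water deficit, against 33.7% of all, and of those higher under water deficit 24.1% were lower after head excision, against 28.3% of all. No test was run on these shares. Head excision rests on 1 array against 3 and water deficit on 2 against 2, so these counts are not comparable in size between the treatments.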
